A study of Macaca mulatta with 2 samples.

Results

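The cadherin superfamily genes studied here were the cadherins with a numbered CDH symbol and the nonclustered and clustered protocadherins of the rhesus macaque prefrontal cortex. Members were the rows of the count table with such a symbol and at least 1 CPM, the reads on a gene relative to all reads on genes on a common scale, in one of the libraries. Of 51 rows with such a symbol, 47 passed, out of 33618 genes in the table and 18050 that passed the same minimum. They were chosen by symbol and level, not by the difference between the libraries, but with earlier results of these data known.

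RNA sequencing covered 1 control animal and 1 animal of the sevoflurane group, both given an age of postnatal day 28. Sevoflurane, an inhaled anesthetic, was given at 2.5 to 3% for 4 h on postnatal days 7, 14 and 28 by the sample labels, and the study's methods state later days for the last exposures and harvest directly after the third. The methods give no sham anesthesia, oxygen exposure or intubation for the control animals, so handling, anesthesia and animal differ together. With 1 library per group there were no replicates, so every value below compares 2 libraries and not the conditions, and no p-value is given. The series describes further animals in each group, which were not analysed here.

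Depth was 16960880 reads for the control and 9839105 for the sevoflurane sample. Over 7 Y-linked genes, 3 control and 4308 sevoflurane reads were counted, so sex and exposure cannot be told apart either. All 10 neuron markers passed the minimum, the glutamatergic SLC17A7 at 998 and 914 CPM, as did all 8 astrocyte and all 8 oligodendrocyte markers. The choroid plexus transcription factor OTX2 had 0 reads in both libraries. Fewer cells of a type and less RNA per cell cannot be told apart in such bulk tissue.

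Cadherins are calcium-dependent adhesion proteins whose extracellular repeats bind those of the neighbouring cell. Classical cadherins of type I and type II hold the actin cytoskeleton through catenins and help to sort neurons, place axons and stabilise synapses. Nonclustered protocadherins of the delta1 and delta2 families adhere more weakly and act in axon growth and synapse formation. The clustered alpha, beta and gamma protocadherins are switched on in different combinations in single neurons and give each neuron a surface identity.

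The family did not move as one. The lower members were led by PCDH17, CDH19, CDH13, PCDH19 and CDH11, and CDH22 was the only member at least 2-fold higher. CPM were scaled with the TMM factors of edgeR, and each log2 ratio set sevoflurane against control after adding a prior count of 2. Each ratio carried a 95% exact binomial (Clopper-Pearson) interval, which covers counting error only, and a gene was called when it differed at least 2-fold and its interval excluded equal expression. By this rule 5 of the 47 members (10.6%) were lower, against 5.47% of all tested genes, and 1 member (2.13%) was higher, against 7.56%. With all ratios centred on the median of 10 neuron markers, a choice made after seeing the data, 2 members (4.26%) were lower, against 3.33% of all tested genes, and 3 (6.38%) higher, against 12.2%. Those markers did not move together, and their own log2 ratios ranged from -0.56 for NEFL to 0.83 for RBFOX3. The median log2 ratio of the members was 0.09, and that of all tested genes was -0.0048.

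The same counts were taken over the genes whose mean reached 20 CPM, a level chosen for this purpose after the values were known. There, 3 of 33 members (9.09%) were lower, against 2.13% of 8273 genes, and 1 of 33 (3.03%) was higher, against 2.02%. Without regard to size, 16 of the 47 members lay below and 14 above equal expression beyond counting error, 34.0% and 29.8%, against 28.1% and 28.4% of all tested genes. The remaining 17 members had intervals that included equal expression.

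**Figure D1:**
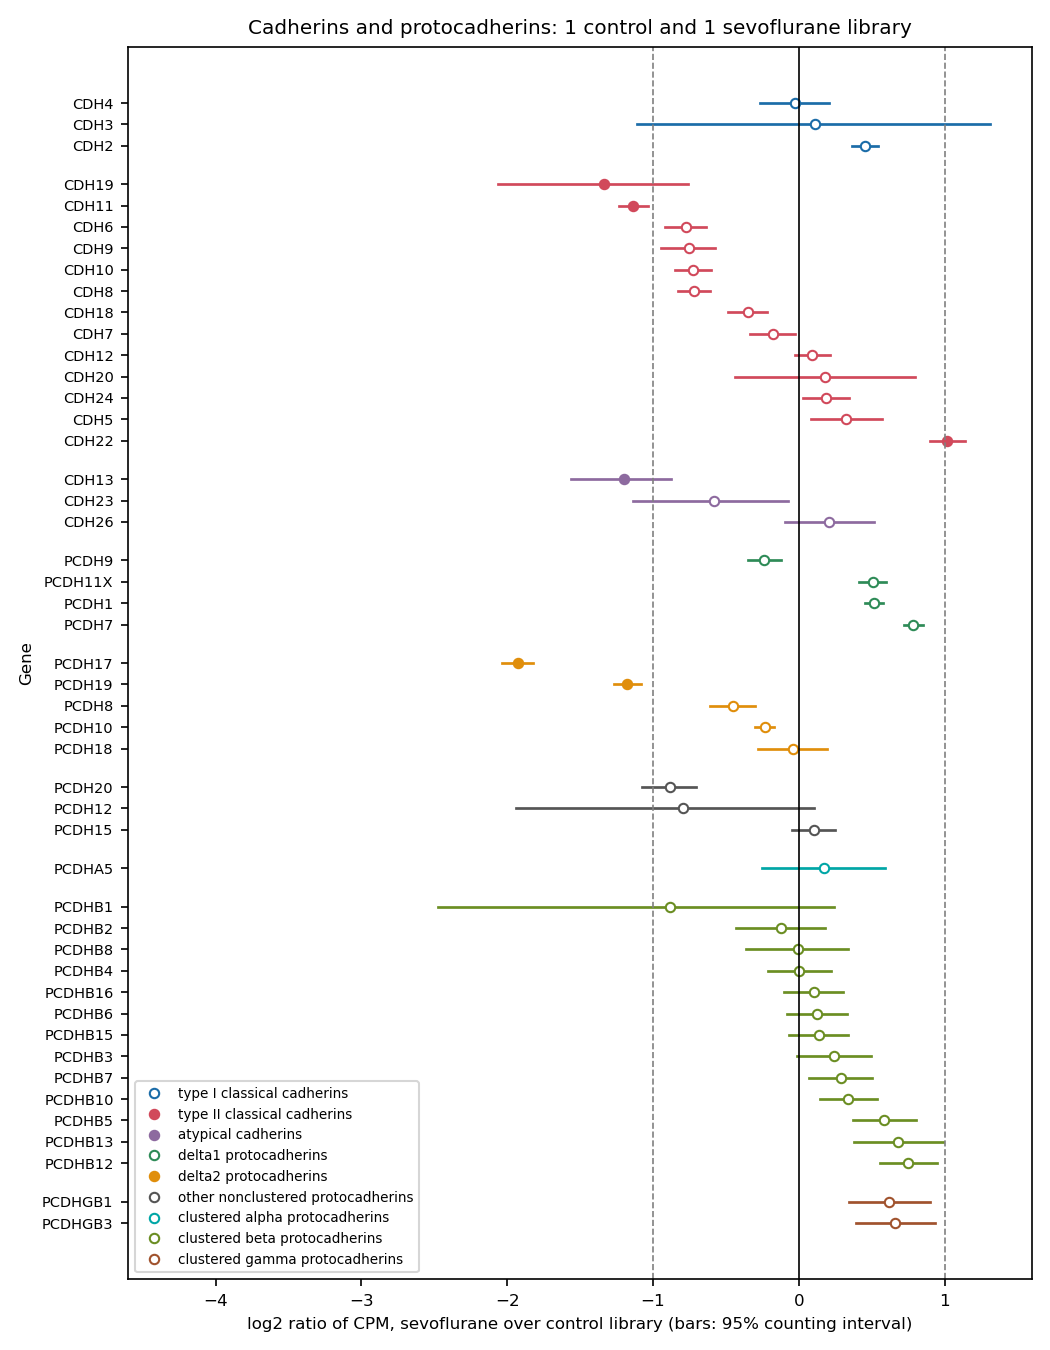
Log2 ratio of CPM (sevoflurane over control library, x axis) of each of the 47 members (y axis, by subgroup), with its 95% counting interval; filled points differ at least 2-fold with an interval that excludes equal expression, and dashed lines mark log2 ratios of -1 and 1. PCDH17 at -1.93 and CDH22 at 1.02 are the extremes, and the beta protocadherins lie between -0.88 and 0.75.

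Among type I classical cadherins, CDH2 (N-cadherin), which holds both sides of the synapse together, had 2233 reads in the control and 1809 after sevoflurane, or 133 and 182 CPM. Its log2 ratio of 0.45 (95% interval 0.36 to 0.55) put it above equal expression but under 2-fold. CDH4 (R-cadherin) was at 24.2 and 23.8 CPM, a log2 ratio of -0.03 with an interval of -0.26 to 0.21. The remaining member, CDH3 (P-cadherin), was an epithelial cadherin near the minimum, with 17 and 11 reads. Of the 3 type I genes, 1 was above equal expression and none below, where all tested genes had 28.4% above and 28.1% below.

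Type II classical cadherins, which label subsets of neurons and their target fields, formed a wide range. Of 13 members, 8 were below equal expression beyond counting error, 3 above and 2 not distinguishable, where all tested genes had 28.1% below and 28.4% above. Their median log2 ratio was -0.35. Their summed level was 1040 CPM in the control and 795 CPM after sevoflurane. CDH11 (OB-cadherin), found in mesenchymal cells and in neurons, had 3938 control reads and 1060 sevoflurane reads, 234 against 107 CPM. It was 2.20-fold lower by CPM, with a log2 ratio of -1.13 (95% interval -1.23 to -1.04), which became -0.87, under 2-fold, when centred on the neuron markers.

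CDH19 belongs to the glial lineage, known from Schwann cell precursors and oligodendrocytes, and was the lowest type II member. It had 115 reads in the control and 26 after sevoflurane, 6.84 and 2.62 CPM, with a log2 ratio of -1.34 (95% interval -2.06 to -0.76). All 8 oligodendrocyte markers were lower as well, 7 of them at least 2-fold, against 5.47% of all tested genes. Their median was -1.26 and their summed level 4177 CPM in the control and 2036 CPM after sevoflurane. Of 6 precursor markers all were below equal expression, against 28.1% of all tested genes, with a median of -0.36 and a sum of 468 and 329 CPM. The part of these cells in the CDH19 difference was not tested.

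CDH6, CDH9, CDH10 and CDH8, type II cadherins studied for their part in matching axons with their target cells, were each lower by a similar amount. CDH6 was at 98.3 CPM in the control and 57.4 CPM after sevoflurane (log2 ratio -0.77, 95% interval -0.92 to -0.64). CDH9 was at 55.5 and 32.8 CPM (-0.75), CDH10 at 119 and 72.2 CPM (-0.72) and CDH8 at 153 and 93.1 CPM (-0.72). The 4 genes lay at 58.4% to 60.7% of their control level and their intervals overlapped, so their order has no meaning.

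CDH18 was at 86.9 and 68.1 CPM (log2 ratio -0.35, 95% interval -0.49 to -0.22). CDH7 was at 60.6 and 53.6 CPM, a log2 ratio of -0.18 that became 0.087 when ratios were centred on the neuron markers. CDH12, a neighbour of CDH18 in gene order, was at 89.4 and 95.4 CPM and not distinguishable from equal expression (95% interval -0.03 to 0.21). The type II genes of neurons therefore did not share 1 direction.

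CDH22, a type II cadherin of the brain, went the other way. It had 1078 control and 1293 sevoflurane reads, although the sevoflurane library was the shallower one, or 64.2 and 130 CPM. Its log2 ratio of 1.02 (95% interval 0.90 to 1.14) sat at the threshold, and with all genes of at least 1 read in the scaling it was 0.998 and no longer called. CDH24 was at 48.1 and 54.8 CPM (log2 ratio 0.19, 95% interval 0.03 to 0.35).

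CDH5 (VE-cadherin), the junctional cadherin of endothelial cells, was at 19.5 CPM in the control and 24.5 CPM after sevoflurane. Its log2 ratio was 0.32 (95% interval 0.08 to 0.57), and 8 further endothelial markers had a median of 0.08, with 2 above and 1 below equal expression and a sum of 206 and 213 CPM. The part of endothelial cells in the CDH5 difference was not tested. CDH20, with 58 and 39 reads, had an interval that included equal expression (-0.44 to 0.80).

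The 3 atypical cadherins differ in structure from the classical ones. CDH13 (T-cadherin), which is anchored in the membrane by a lipid, had 349 control and 89 sevoflurane reads, 20.8 against 8.96 CPM. It was 2.32-fold lower, with a log2 ratio of -1.20 (95% interval -1.56 to -0.87). CDH23, a part of the hair cell tip link, had 110 and 43 reads (log2 ratio -0.58, 95% interval -1.14 to -0.08). CDH26 was at 13.4 and 15.5 CPM with an interval of -0.09 to 0.51. Of the 3 genes only CDH13 was called, where 5.47% of all tested genes were called lower. CDH13 was at -0.93 and not called when centred on the neuron markers.

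**Figure D2:**
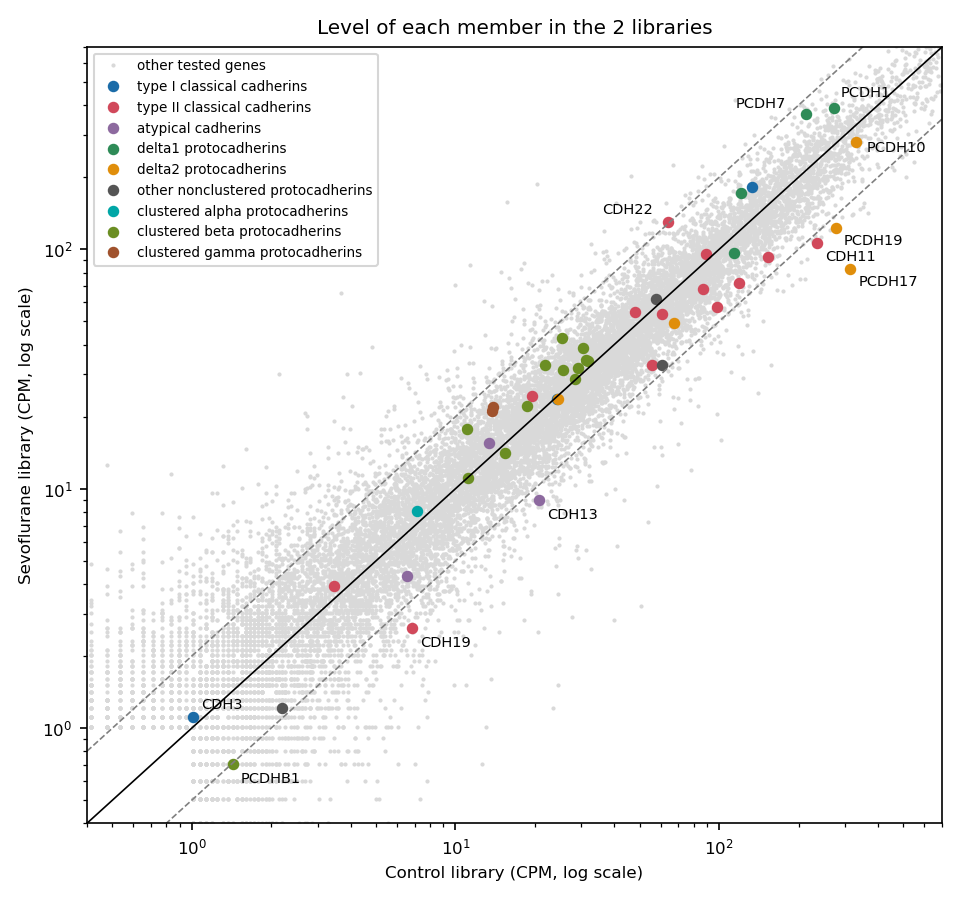
Level of each member in the control (x axis) and sevoflurane library (y axis) in CPM on log scales, coloured by subgroup over the other tested genes in grey; the solid line marks equal levels and the dashed lines 2-fold differences. PCDH17, PCDH19, CDH11, CDH13 and CDH19 lie below the lower dashed line and CDH22 on the upper one; CPM are not corrected for gene length, so positions along the diagonal do not rank the genes.

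The delta2 protocadherins held the largest difference among the members. PCDH17, which acts at synapses of cortical and basal ganglia circuits, had 5284 reads in the control and 821 after sevoflurane. Its level was 314 against 82.7 CPM, or 26.3% of the control. The log2 ratio of -1.93 (95% interval -2.04 to -1.82) ranked 245 from the lowest among the 18050 tested genes.

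PCDH19, an X-linked gene whose loss of function causes an epilepsy that mainly affects girls, had 4649 control and 1216 sevoflurane reads. Its level was 277 and 122 CPM, a log2 ratio of -1.17 (95% interval -1.27 to -1.08) that became -0.91, under 2-fold, when centred on the neuron markers. The other X-linked member, the delta1 gene PCDH11X, differed in the opposite direction, with 2040 and 1714 reads, 121 and 173 CPM, and a log2 ratio of 0.51 (95% interval 0.41 to 0.60). The libraries differed in Y-linked reads, and the part of sex in either value cannot be told apart from the exposure. The reason for these opposite directions was not tested. PCDH11Y was left out of the members by rule.

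PCDH8 (arcadlin), which neuronal activity induces and which draws N-cadherin from the synapse, was at 67.2 CPM in the control and 49.1 CPM after sevoflurane. Its log2 ratio was -0.45 (95% interval -0.61 to -0.30). Of 11 activity-regulated genes tested, 7 were at least 2-fold lower, against 5.47% of all tested genes. Their median was -2.22 and their sum 1050 and 638 CPM, but EGR3 (0.07) and JUNB (-0.12) had intervals that included equal expression. The part of activity in the PCDH8 difference was not tested.

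The remaining delta2 genes differed less. PCDH10, which takes part in the removal of synapses, was at 331 and 282 CPM, a log2 ratio of -0.23 (95% interval -0.30 to -0.17) that became 0.032 when centred on the neuron markers. PCDH18 was at 24.5 and 23.8 CPM with an interval of -0.28 to 0.19, and its log2 ratio became 0.22 when centred on the neuron markers. All 5 delta2 ratios were negative, 4 of them beyond counting error, where 28.1% of all tested genes lay below equal expression. Their median was -0.45, and the summed level was 1014 CPM in the control and 560 CPM after sevoflurane. Most of the difference in this sum came from PCDH17 (314 and 82.7 CPM) and PCDH19 (277 and 122 CPM).

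The delta1 protocadherins, which differ from delta2 in carrying an extra extracellular repeat and a motif that binds protein phosphatase 1, were mostly higher. PCDH7 had 3586 control and 3655 sevoflurane reads, 213 and 368 CPM, with a log2 ratio of 0.79 (95% interval 0.72 to 0.85). PCDH1 was at 273 and 390 CPM (log2 ratio 0.52, 95% interval 0.45 to 0.58). With PCDH11X, 3 of the 4 delta1 genes were above equal expression, against 28.4% of all tested genes. None reached 2-fold, although PCDH7 was at 1.05 and called when centred on the neuron markers.

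PCDH9 was the exception, at 114 and 96.7 CPM with a log2 ratio of -0.24 (95% interval -0.35 to -0.12), which became 0.029 when centred on the neuron markers. The summed delta1 level was 722 CPM in the control and 1028 CPM after sevoflurane, the opposite direction to the sum of the delta2 genes. Their medians were 0.51 and -0.45, and only 1 library per group stands behind both.

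Outside the delta families, PCDH20 had 1021 control and 326 sevoflurane reads, 60.8 and 32.8 CPM. Its log2 ratio of -0.89 (95% interval -1.07 to -0.71) stayed under 2-fold. PCDH15, a tip link protein that is also found in oligodendrocyte precursors, was at 57.7 and 62.0 CPM and not distinguishable from equal expression (95% interval -0.04 to 0.25), whereas the precursor markers listed with CDH19 were lower. PCDH12, an endothelial protocadherin, had 37 and 12 reads, too few to separate its log2 ratio of -0.79 from equal expression (95% interval -1.94 to 0.11).

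The clustered protocadherins ranged from a log2 ratio of -0.88 to 0.75. Each beta gene is a single large exon with its own promoter, whereas alpha and gamma genes join a variable exon to constant exons that the whole cluster shares. How the authors counted reads that match several of these near-identical genes is not given in the sources used here, so the value of each single gene is uncertain. Of the alpha and gamma clusters, PCDHA5, PCDHGB1 and PCDHGB3 were members, and the others were not analysed here.

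None of the 13 beta genes was called in either direction, where 7.56% of all tested genes were called higher and 5.47% lower. PCDHB12 was at 1.01 and called when centred on the neuron markers. Of these 13, 5 were above equal expression beyond counting error, 8 were not distinguishable and none was below. Among all tested genes, 28.4% were above and 28.1% below. The median log2 ratio of the beta genes was 0.14. Their summed level was 282 CPM in the control and 340 CPM after sevoflurane. PCDHB12 was the highest, with 425 and 423 reads, 25.3 and 42.6 CPM, and a log2 ratio of 0.75 (95% interval 0.55 to 0.95). PCDHB5 was at 21.9 and 32.9 CPM (log2 ratio 0.59, 95% interval 0.37 to 0.81).

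PCDHB13 (log2 ratio 0.68), PCDHB10 (0.34) and PCDHB7 (0.29) were the further beta genes above equal expression. PCDHB4, PCDHB16, PCDHB6, PCDHB15 and PCDHB3 ranged from 0.0047 to 0.24, each with an interval that included equal expression, and so did PCDHB2 at -0.12 and PCDHB8 at -0.0066. PCDHB1 was the lowest at -0.88, but its 24 and 7 reads gave an interval of -2.48 to 0.24.

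The gamma genes PCDHGB1 and PCDHGB3 were close to each other. PCDHGB1 had 231 and 210 reads, 13.7 and 21.1 CPM (log2 ratio 0.62, 95% interval 0.34 to 0.90). PCDHGB3 had 233 and 218 reads, 13.9 and 22.0 CPM (log2 ratio 0.66, 95% interval 0.39 to 0.94). The alpha gene PCDHA5 was at 7.14 and 8.06 CPM with an interval of -0.25 to 0.59.

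Position was compared through gene order in the RefSeq table of the macaque assembly MMU8v2.0, which matched 43 of the 47 members and was used for neighbours only. CDH10, CDH9 and CDH6 follow each other with 0 protein-coding genes between them, and their log2 ratios were -0.72, -0.75 and -0.77 with overlapping intervals. CDH12, with 1 gene between it and CDH10, was at 0.09, and CDH18 beyond it at -0.35. Adjacent genes also differed, since CDH11 at -1.13 lies between CDH8 at -0.72 and CDH5 at 0.32.

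PCDH8, PCDH17, PCDH20 and PCDH9 also follow each other in gene order, with at most 2 protein-coding genes between neighbours. Distances along the chromosome were not compared. All 4 were below equal expression, from -1.93 for PCDH17 to -0.24 for PCDH9, where 28.1% of all tested genes lay below. PCDH9 became 0.029 when centred on the neuron markers. CDH19 at -1.34 and CDH7 at -0.18 are separated by 2 genes. In the beta cluster, the highest log2 ratios were those of PCDHB12 and PCDHB13, which follow each other with 0 genes between them.

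**Figure D3:**
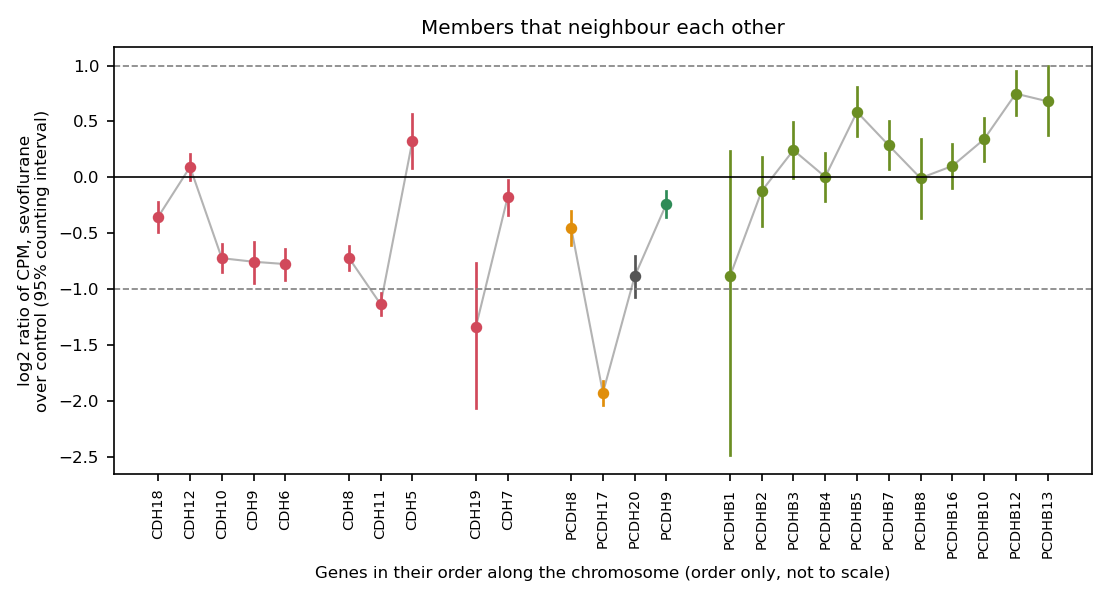
Log2 ratio of CPM (sevoflurane over control, y axis) with its 95% counting interval for members that neighbour each other with at most 2 protein-coding genes between them, in gene order (x axis, not to scale); lines join genes of the same run. CDH10, CDH9 and CDH6 lie together at -0.72 to -0.77, and CDH11 and CDH5 lie apart at -1.13 and 0.32.

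Partner genes were described from lists. The counts of this and the following lists stand against 28.1% of all tested genes below and 28.4% above equal expression. Of 11 tested catenins and related partners, which tie cadherins to actin, 6 were below equal expression and 1 above, with a median log2 ratio of -0.12. CTNNB1 (beta-catenin) was at 376 and 346 CPM (log2 ratio -0.12, 95% interval -0.18 to -0.06). CTNNA3 (alpha-T-catenin) was the only one called, with 96 and 21 reads and a log2 ratio of -1.37 (95% interval -2.19 to -0.74), and PKP2 was the highest at 0.63.

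The 8 genes of the proteases that shed cadherin ectodomains and cleave the remaining stub had a median of -0.16, with 3 below equal expression and none called. They ranged from -0.37 for APH1A, a gamma-secretase subunit, to 0.0016 for PSEN2, the catalytic presenilin 2. ADAM10, the main sheddase of N-cadherin, was at 86.5 and 78.3 CPM (log2 ratio -0.14, 95% interval -0.27 to -0.02).

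Genes for promoter choice at the clustered protocadherins, where CTCF and cohesin loop an enhancer to 1 promoter, were also listed. Of 11 tested, 6 were above equal expression and 1 below, against 28.4% and 28.1% of all tested genes, none was called, and the median was 0.28. CTCF was at 38.4 and 50.5 CPM (log2 ratio 0.40, 95% interval 0.23 to 0.57). SETDB1, a histone methyltransferase, was the highest at 0.51, and the cohesin subunit RAD21 the lowest at -0.47, while its partner SMC1A was at 0.30.

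Of 12 protocadherin signalling partners, among them focal adhesion kinases and the WAVE complex that drives actin branching, 7 were below and 3 above equal expression, with a median of -0.15. The WAVE subunit BRK1 was the lowest at -0.63. RET, a receptor kinase with cadherin-like repeats, was the only one called, with 51 reads in the control and 68 after sevoflurane (log2 ratio 1.14, 95% interval 0.63 to 1.73).

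In the wider superfamily, 18 of 22 listed genes were tested, and 7 were below and 2 above equal expression, with a median of -0.08. FAT2, a giant cadherin known from cerebellar granule cells, was the only one called, with 326 reads in the control and 36 after sevoflurane (log2 ratio -2.37, 95% interval -2.96 to -1.92). It lay below every member named above, PCDH17 included. CDHR1 was the highest at 0.61, with 18 and 17 reads and an interval that included equal expression.

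**Figure D4:**
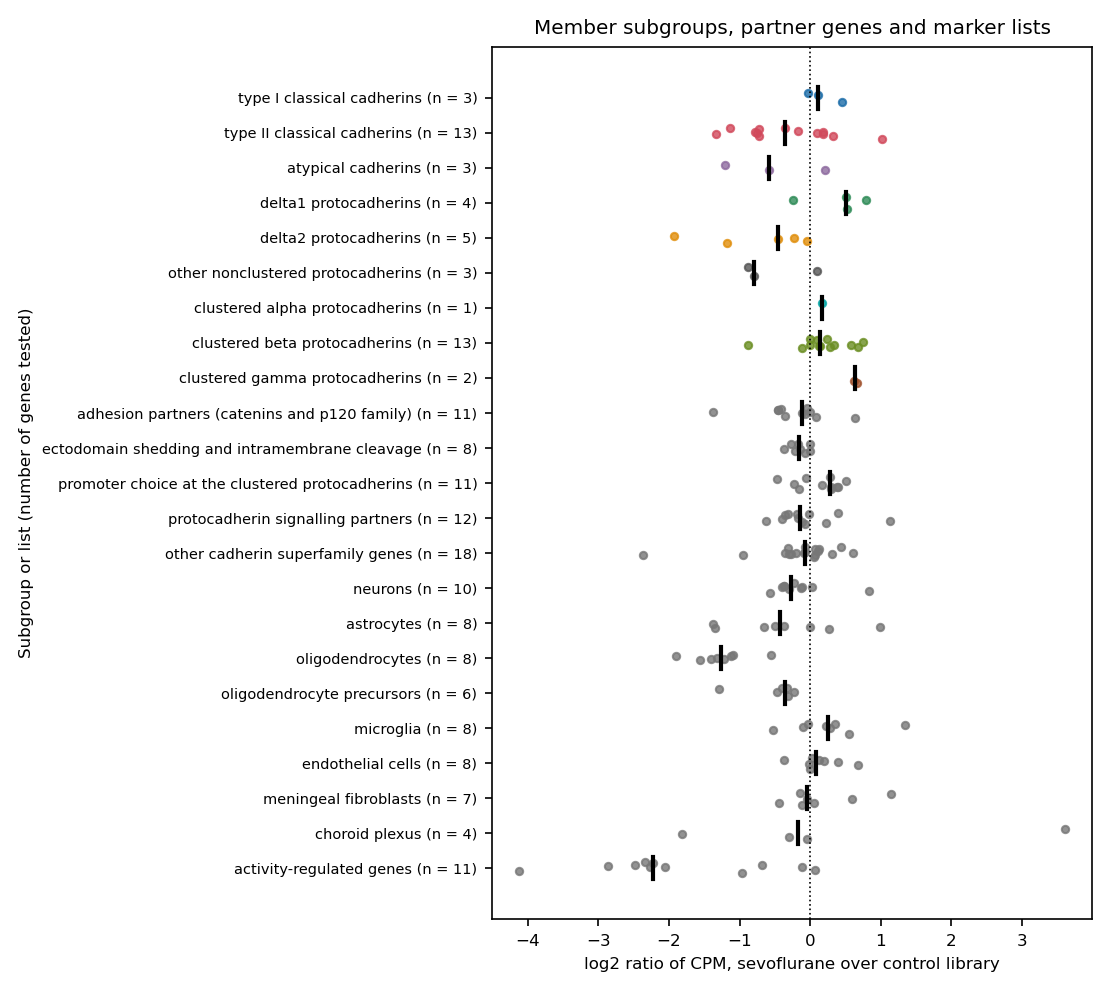
Log2 ratio of CPM (sevoflurane over control, x axis) of the tested genes in each member subgroup (coloured) and in the lists of partner and marker genes (grey), with a black bar at each median and a dotted line at the median of all tested genes. The delta1 and delta2 medians lie at 0.51 and -0.45, and the activity-regulated and oligodendrocyte lists at -2.22 and -1.26.

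Cell type markers moved between the libraries beside these values, and their part in the members' differences was not tested. Of all tested genes, 28.1% were below and 28.4% above equal expression. The neuron markers had a median log2 ratio of -0.27, with 8 of 10 below and 1 above equal expression and a sum of 8959 and 7482 CPM. Astrocyte markers had a median of -0.43, with 5 of 8 below and 2 above, and a sum of 6170 and 4309 CPM. Microglia markers had a median of 0.25, with 3 of 8 above and 1 below, and a sum of 229 and 246 CPM.

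Epithelial and mesenchymal cadherins are also made in the coverings of the brain, whose part in the members' values was not tested. Of 7 meningeal fibroblast markers, 2 were above and 1 below equal expression, with a median of -0.05 and a sum of 619 and 741 CPM. The 2 above were the collagens COL1A1, at 77.8 and 172 CPM, and COL1A2, at 89.6 and 136 CPM. Of 6 choroid plexus markers, 4 were tested, 1 above and 1 below equal expression, with a median of -0.17 and a sum of 20.4 and 17.1 CPM. The 2 called were TTR, a carrier of thyroid hormone, with 2 control and 31 sevoflurane reads, and CLIC6, with 126 and 20 reads, and FOLR1 had 0 reads in the control.

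The 4 rows under the CPM minimum included 2 that were called higher when every gene with at least 1 read was kept. CDH1 (E-cadherin) had 0 control reads, below the floor of 3 reads, and 5 sevoflurane reads, and CDH15 (M-cadherin) had 2 and 7 reads. CDH17 had 11 and 4 reads and CDH16 had 0 reads in both libraries. Just inside the minimum were CDH3, at 1.00 and 1.12 CPM before TMM scaling, and PCDHB1, at 1.42 and 0.711 CPM.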

How the data were processed

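Prefrontal cortex RNA of 1 control macaque and 1 macaque given sevoflurane was compared, with groups taken from the sample titles. The values are raw read counts for each gene as the authors deposited them, and the submitters' processing notes name HISAT2 2.0.4. The counting tool, genome build and annotation are not given in the sources used here, so no coordinates are printed. The depth was 16960880 and 9839105 reads on genes.

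Here, TMM factors (edgeR 4.0.16, R 4.3.3) came from the 18050 genes that reached 1 CPM in one of the libraries, and log2 ratios used a prior count of 2. The 95% Clopper-Pearson intervals (scipy 1.17.1) treat each read as an independent count and cover counting error only, not variation between animals. No source names molecular identifiers, so reads copied from the same molecule could not be set apart and the intervals may be too narrow. The quasi-likelihood test of edgeR could not be fitted with 1 library per group. The procedure was tested on simulated data that held counting noise only, so that test does not cover variation between animals. Plots were drawn with matplotlib 3.10.9.

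The members and lists were chosen with earlier results of these data known. The 15 lists covered 5 sets of partner genes, 9 marker sets and the Y-linked genes. AFDN and NR4A1, which the lists hold, were not analysed here. Named with values were members with a mean of at least 20 CPM, called members, the extremes of each subgroup, and CDH5, CDH19, PCDH15 and PCDH8, and the called genes and extremes of the partner lists. Further genes were named after their values were seen. Alternatives comprised library totals, upper-quartile scaling, size factors of DESeq2 1.42.0, a prior count of 0.5, filters of 1 read and 5 CPM, 1.5-fold and 4-fold thresholds and a stricter counting interval. Centring on the median of the neuron markers was added after seeing the data.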

Additional observations from a re-analysis of the deposited data

How the results depend on the processing

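Scaling by library totals, by the upper quartile or by DESeq2 size factors shifted all genes by 0.027, 0.01 and 0.0053 on the log2 scale, and with them, a prior count of 0.5 or a stricter counting interval, 5 members were lower and 1 higher. Of all tested genes, the stricter interval left 986 (5.46%) higher and 710 (3.93%) lower. These scalings and the prior count left 1383 to 1435 (7.66% to 7.95%) higher and 945 to 1025 (5.24% to 5.68%) lower. With a filter of 1 read, 2 of 50 members were higher, CDH1 and CDH15, and 5 lower, against 1708 and 1193 of 24432 genes, and CDH22 was at 0.998. A threshold of 1.5-fold gave 7 higher members (14.9%), against 2604 of all tested genes (14.4%), and 10 lower members (21.3%), against 2141 (11.9%). At 4-fold, 0 members were higher and 0 lower, against 352 (1.95%) and 221 (1.22%) of all tested genes. By construction a looser threshold can only add calls and a stricter threshold can only remove them. Testing only genes that reached 5 CPM, and so fewer genes, gave 606 and 474 of all genes and medians of -0.51 for type II cadherins and -0.91 for choroid plexus markers.

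Centring on the neuron markers, chosen after seeing the data, raised every ratio by the same amount. It left 2 members lower, PCDH17 (-1.66) and CDH19, and 3 higher, CDH22 (1.29), PCDH7 (1.05) and PCDHB12 (1.01), with 601 (3.33%) and 2201 (12.2%) of all genes. CDH11 (-0.87), CDH13 (-0.93) and PCDH19 (-0.91) then fell short of 2-fold. Of the members below equal expression beyond counting error, CDH7 (0.087), PCDH9 (0.029) and PCDH10 (0.032) changed sign. So did members whose intervals had included equal expression, among them PCDH18 (0.22) and CDH4 (0.24). The members' median became 0.36, and those of type II cadherins, delta1, delta2 and beta protocadherins -0.086, 0.78, -0.18 and 0.40.

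No paired analysis was possible because only 1 library per group was used, and there was no replicate to leave out. The floor of 3 reads corresponds to 0.302 CPM in the sevoflurane library after TMM scaling.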
